A study of Homo sapiens with 14 samples.

Results

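Retained introns are introns left in a processed transcript while other copies of the same transcript have them spliced out. Of 114349 splice events in the deposited HEK293T event table, 4337 were of the retained intron type. Members were chosen as the retained intron events whose WT and MT read totals averaged at least 10, which left 3609. Of these, 3603 had an inclusion level in all 6 libraries and 3518 had levels that varied, and these 3518 were tested together with all other event types (83627 events in all). Each of the 3518 events was a different intron, and they came from 2006 genes. At the read minimum, an EP400NL intron with 10 mean reads was just inside, and an OBSL1 intron with 9.92 was just outside.

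HEK293T is a transformed human embryonic kidney line. The WT libraries (n = 3) carried SF3B1 K700K, the unchanged amino acid, and the MT libraries (n = 3) carried SF3B1 K700E, the hotspot substitution of this splicing factor, in isogenic cells with no further treatment named in the labels. The comparison of MT with WT addresses which splice choices differ with the mutation. All 6 libraries were total RNA made with a stranded kit. The labels do not say that the 3 libraries of a genotype came from separate cultures, so the p-values measure the spread between these libraries, which may be technical. The MT read means in the table are the authors' means over 6 listed values, whereas 3 MT level columns are given, and it is not settled that those 3 columns are the 3 labelled MT samples. The table holds no base calls and no expression levels, so the allele and the kidney cell identity were not checked here.

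SF3B1 is a core subunit of the U2 small nuclear ribonucleoprotein (U2 snRNP), which binds the branch point and sets where the 3′ splice site (the acceptor) is used. Hotspot mutants of SF3B1 are known for using cryptic acceptors that lie a short way upstream of the normal one. Intron retention is a separate outcome in which neither acceptor is joined to the donor (the 5′ splice site). The event type also covers introns that lie inside a normal exon, where the retained form is simply the ordinary exon and the spliced form is the unusual one.

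The inclusion level is the share of an event's transcripts in which the intron stays, from 0 (always spliced) to 1 (always retained), counted from junction reads per form length. In a bulk culture, a level between these ends cannot tell a mixture of cells from a mixture of transcripts within each cell. The tested introns had a median length of 247 bp, from 1 to 9137 bp, with 8 under 30 bp. Their ends were GT-AG in 3421 introns (97.2%), GC-AG in 75 and AT-AC in 3. The median of the mean reads was 70.9 per event and library, with quartiles at 32.4 and 151.8. In GENCODE annotation, 3358 (95.5%) were spliced in at least 1 annotated transcript and 3508 (99.7%) were covered by an exon of at least 1 transcript.

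Against the canonical transcript of each gene, 2349 of the 3518 were its own introns, with a median level of 0.0982 over the 6 libraries. Another 361 lay inside a canonical exon, with a median level of 0.965. A further 173 used a canonical donor with an acceptor upstream of the canonical one, 338 a canonical donor with an acceptor downstream, and 223 a canonical acceptor with another donor, with median levels of 0.838, 0.929 and 0.925. The remaining 74 were 68 introns of other kinds and 6 in genes with no canonical transcript matched. The canonical introns were thus mostly spliced, and the other classes mostly retained. An intron of a non-canonical class counts only its own 2 forms, so reads that join the donor to the canonical acceptor do not enter its level.

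Libraries WT 3 and MT 3 stood apart from the others of their genotype in retention. The median level was 0.167 in WT 1, 0.173 in WT 2 and 0.25 in WT 3, and 0.161 in MT 1, 0.177 in MT 2 and 0.227 in MT 3. Over canonical introns alone the medians were 0.075, 0.081 and 0.129 in WT 1 to 3, and 0.075, 0.086 and 0.113 in MT 1 to 3. Both libraries numbered 3 were the highest of their genotype, and the 2 genotypes overlapped.

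The sequences shown next are the splice sites of the introns whose inclusion level fell in MT, with some other acceptors paired with the same donors. Each acceptor window holds 27 intron bases and 3 exon bases with the closing AG of the intron in capitals, and each donor window holds 3 exon bases and 6 intron bases with the opening GT in capitals. All were read 5′ to 3′ from GRCh38 (hg38), on the gene's strand.
RPRD1A donor, chr18:36026894-36026902: gaaGTgcgt
RPRD1A acceptor, chr18:36025676-36025705: ttaacttctattgagcttctgttgcAGata
COASY donor, chr17:42562217-42562225: tcaGTgagt
COASY acceptor, chr17:42562329-42562358: agccctgtgacaagggttcctgtccAGttt
COASY acceptor 60 nt upstream, chr17:42562269-42562298: ttcgattccttgaagaccctggtgcAGctt
TMEM218 donor, chr11:125102728-125102736: ctgGTgagt
TMEM218 acceptor of the called intron, chr11:125102349-125102378: tcaaaaaataacctgtaatgagtttAGgct
TMEM218 canonical acceptor, chr11:125102315-125102344: gtatttgtctgaatgctttcacgggAGtgt
RPS15 donor, chr19:1438890-1438898: ctaGTaagg
RPS15 acceptor of the called intron, chr19:1439941-1439970: tagttctctgtccgccggagtgcgtAGggt
RPS15 acceptor 58 nt upstream of the canonical one, chr19:1439934-1439963: caagccttagttctctgtccgccggAGtgc
Pyrimidines (C or T) made up 45% of the 20 bases before the AG at the called TMEM218 acceptor and 55% at its canonical acceptor. The shares were 60% at the called RPS15 acceptor and 70% at the RPS15 acceptor just before it. They were 70% at the RPRD1A acceptor, 55% at the called COASY acceptor and 60% at the COASY acceptor upstream of it. The canonical acceptors of RPRD1A and RPS15 are not shown. The called TMEM218 acceptor held 8 adenines in those bases, and its canonical acceptor held 3. The RPRD1A acceptor held 2, both COASY acceptors 3 each, and both RPS15 acceptors 1 each.

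The inclusion level fell in MT in 4 introns, those of RPRD1A, COASY, TMEM218 and RPS15, and no intron passed the test in the other direction. An intron was called at an adjusted p under 0.05 (limma on the arcsine square root of the level, Benjamini-Hochberg over all 83627 events) with a difference in mean level above 0.1. The 4 calls were 0.114% of retained introns, against 0.0311% of all event types (26 of 83627, with 0.0179% lower and 0.0132% higher) and 0.0275% of the other types (22 of 80109). At an unadjusted p under 0.05 the shares were 4.41% of retained introns (155, of which 122 lower and 33 higher) and 4.48% of all events. None of the 4 was an intron of the canonical transcript. The calls rested on the scale and variance model: on a logit scale, or with no variance trend, no retained intron passed (adjusted p from limma of 0.174 to 0.763 and 0.143 to 0.634 over the 4), and none passed without WT 3 and MT 3 (0.656 to 0.839). With the replicate numbers as a block, 2 of the 4 passed, those of RPRD1A and COASY.

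The RPRD1A intron had the largest fall. RPRD1A binds the C-terminal domain of RNA polymerase II. This 1221 bp intron, chr18:36025679-36026899 on the minus strand, starts at the donor of the last canonical intron (number 6 of 6) and ends 32378 nt before that intron's acceptor. It is spliced in 1 annotated transcript and lies within exons of 2. Its level was 0.886, 0.722 and 0.701 in the WT libraries and 0.19, 0.096 and 0.108 in MT, so every MT library lay below every WT library. The mean went from 0.770 ± 0.101 (SD, n = 3) to 0.131 ± 0.0512 (SD, n = 3), a difference of -0.638 (limma adjusted p = 3.07e-06). The authors' mean of retained-form reads went from 59 to 35.2 and that of spliced-form reads from 9.33 to 117.7, so the reads gained were of the spliced form. Without MT 1 the adjusted p was 0.077. A second RPRD1A event, inside canonical exon 7, stayed between 0.964 and 0.995 in the 6 libraries (difference 0.0017, adjusted p = 0.987 in limma).

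COASY, which makes the enzyme of the last steps of coenzyme A synthesis, had the second call. Its 136 bp intron, chr17:42562220-42562355 on the plus strand, lies inside canonical exon 1 of 9 and outside the canonical coding sequence. The level was 0.975, 0.981 and 1.0 in the WT libraries and 0.506, 0.723 and 0.725 in MT. The mean went from 0.985 ± 0.0131 to 0.651 ± 0.126 (SD, n = 3 each), a difference of -0.334 (limma adjusted p = 4.35e-05). Retained-form reads went from 228.7 to 140.2 and spliced-form reads from 2 to 38 (authors' means). The call was lost without WT 3, MT 1 or MT 2 (adjusted p = 0.056, 0.169 and 0.053).

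An alternative 3′ splice site event pairs the COASY donor with the called acceptor and with another 60 nt upstream. The level of its longer form was 0.945, 0.971 and 1.0 in the WT libraries and 0.319, 0.624 and 0.608 in MT. The difference was -0.455 (adjusted p = 0.000261 in limma). The longer form was counted over a length of 151, against 92 for the shorter, so it can take in reads running across the called acceptor. Unspliced transcripts also give such reads, so the level is not the use of the upstream acceptor alone. The 2 events share the spliced-form reads, may share retained-form reads, and are not separate evidence.

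TMEM218 encodes a membrane protein of the ciliary transition zone. The called intron, chr11:125102352-125102733 on the minus strand (382 bp), shares its donor with canonical intron 2 of 4 and ends 34 nt before the canonical acceptor. Its level was 1.0, 0.933 and 1.0 in the WT libraries and 0.698, 0.581 and 0.652 in MT. The mean went from 0.978 ± 0.0387 to 0.644 ± 0.0589 (SD, n = 3 each; difference -0.334, limma adjusted p = 0.0257). Spliced-form reads went from 0.333 to 9.67 while retained-form reads were 35 and 34.2 (authors' means), so the retained form changed little in reads. With the replicate numbers as a block the adjusted p was 0.158, and without each library in turn it ran from 0.0725 (without WT 2) to 0.88 (without MT 2), so leaving out any 1 of the 6 ended the call.

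The canonical TMEM218 intron, which ends at the next acceptor and lies in the untranslated region of the transcript, had its MT levels above its WT levels. This 416 bp intron had levels of 0.479, 0.444 and 0.415 in the WT libraries and 0.623, 0.512 and 0.673 in MT. Its difference of 0.157 did not pass (limma adjusted p = 0.856). Spliced-form reads were 21.3 in the WT libraries and 14.8 in MT. In the alternative 3′ splice site event of the 2 acceptors, the longer form was at 0.128, 0.205 and 0.134 in the WT libraries and 0.505, 0.435 and 0.563 in MT (difference 0.345, adjusted p = 0.492 in limma). That form was counted over a length of 125 against 92 and can hold reads of the retained canonical intron. Its mean reads were 5.33 in WT and 16.8 in MT, while reads spliced to the upstream acceptor were 0.333 and 9.67. Its level is therefore not the share of the upstream acceptor alone. The MT libraries thus lay above the WT libraries in both of these measures, which share reads. A further TMEM218 intron of 285 bp, with the same upstream acceptor and another donor, had 0.913, 0.913 and 1.0 in the WT libraries and 0.6, 0.448 and 0.615 in MT (adjusted p = 0.338 in limma).

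RPS15 encodes a protein of the small ribosomal subunit and gave the fourth call. The called intron, chr19:1438893-1439967 on the plus strand (1075 bp), shares the donor of canonical intron 2 of 3 and ends 51 nt before the canonical acceptor. Its level was 0.647, 1.0 and 1.0 in the WT libraries and 0.296, 0.385 and 0.4 in MT, from a mean of 0.882 ± 0.204 to 0.360 ± 0.0562 (SD, n = 3 each). The difference was -0.522 (limma adjusted p = 0.0412). Retained-form reads were 23 and 22.7 and spliced-form reads 2 and 19.3 in WT and MT (authors' means). WT 1 was the lowest of the WT libraries and still lay above every MT library. The adjusted p was 0.199 with the replicate numbers as a block, and 0.732 to 0.892 without WT 2, WT 3, MT 1, MT 2 or MT 3, each of which ended the call. Without WT 1 it was 0.0044. With no minimum of reads it was 0.0504, which also ended the call.

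An overlapping RPS15 intron of 1068 bp, which ends 58 nt before the canonical acceptor, had levels of 0.706, 0.833 and 0.76 in the WT libraries and 0.25, 0.385 and 0.349 in MT (difference -0.438, adjusted p = 0.147 in limma). The canonical intron itself, 1126 bp and with a mean of 7054 reads, was at 0.001 in each WT library and 0.002, 0.003 and 0.004 in MT. In alternative 3′ splice site events with the canonical acceptor, the longer forms were at 0.001 in each WT library and at 0.003 to 0.006 in MT. Such forms can also hold unspliced reads. The 2 forms of the called intron, with 33.5 mean reads, were thus a small part of the RPS15 reads at this donor. The intron that ends 7 nt after the canonical acceptor was at 0.858, 0.925 and 0.87 in the WT libraries and 0.887, 0.897 and 0.905 in MT, with the groups overlapping.

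**Figure D1:**
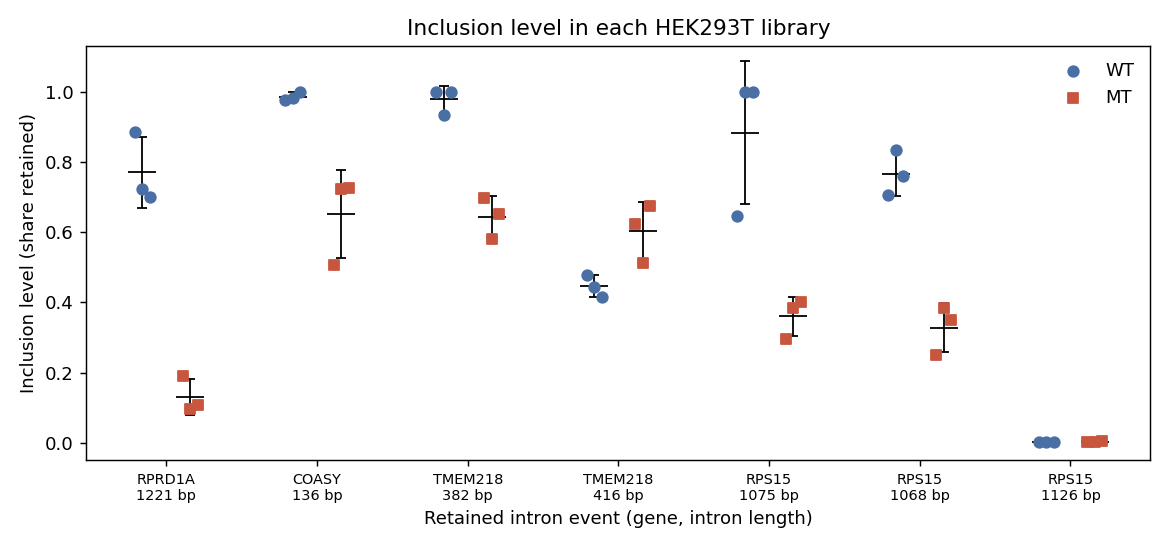
Inclusion level (y axis, share retained, 0 to 1) of 7 retained introns of RPRD1A, COASY, TMEM218 and RPS15 (x axis, gene and intron length) in each WT library (circles) and each MT library (squares), with the mean and SD of 3 libraries. The called introns of 1221, 136, 382 and 1075 bp had all MT points below all WT points, while the canonical TMEM218 intron of 416 bp had all MT points above, and the canonical RPS15 intron of 1126 bp stayed at 0.004 or less.

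**Figure D2:**
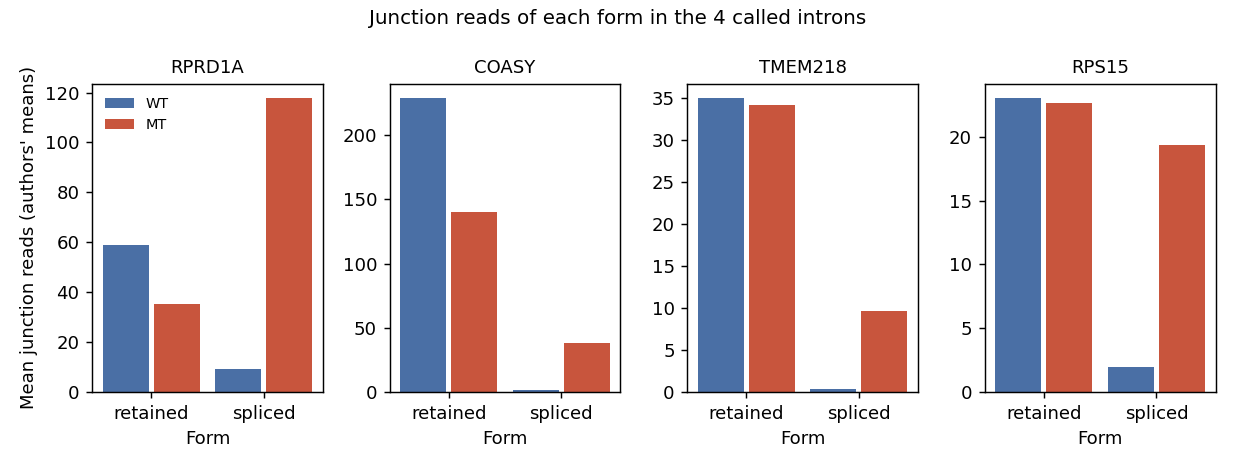
The authors' mean junction reads (y axis) of the retained and the spliced form (x axis) of the 4 called introns in WT and MT cells, with no error since per-library reads were not used. The spliced form was higher in MT in all 4, with 117.7 against 9.33 reads in RPRD1A, and the retained form of TMEM218 and RPS15 was nearly level.

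With all libraries, introns with complete separation of the groups were more often lower than higher in MT. With so few libraries, some events separate by chance alone. No expected count was computed and the counts were not tested, so they are set only beside the shares of all event types. All 3 MT levels lay below all 3 WT levels in 158 retained introns (4.49%) and above in 92 (2.62%). The shares over all event types were 3.14% lower and 2.32% higher, and over the other types 3.08% and 2.3%. A mean difference below -0.1, with no test, was seen in 243 retained introns (6.91%, against 3.31% of all event types), and above 0.1 in 122 (3.47%, against 2.51%). Of the 158, 137 had more spliced-form reads in MT by the authors' means and 118 had fewer retained-form reads. Over all 3518 introns these shares were 50.7% and 44.9%. The counts follow in part from the choice of the 158, since their levels were lower in MT. Of the 92, 25 had more spliced-form reads in MT and 9 fewer retained-form reads. Without WT 3 the counts were 198 lower and 325 higher, and without WT 3 and MT 3 they were 471 and 414, so the order of the 2 directions changes with WT 3. Such counts grow with fewer libraries by construction. Their shares over all event types were not computed, so only the order of the directions is read from them.

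By class, the canonical introns came nearest to balance, with 90 of 2349 lower (3.83%) and 72 higher (3.07%), and no call. Introns with a canonical donor and an upstream acceptor had 14 of 173 lower (8.09%) and 3 higher (1.73%), and held 3 of the 4 calls. Where that acceptor lay 10 to 100 nt upstream, 7 of 65 were lower and 1 higher. Where it lay over 100 nt upstream, 7 of 97 were lower and 1 higher, and of the 11 under 10 nt upstream none was lower and 1 was higher. Introns with a downstream acceptor had 20 of 338 lower (5.92%) and 4 higher (1.18%). Introns inside a canonical exon had 20 of 361 lower (5.54%) and 8 higher (2.22%), and those with another donor 8 of 223 (3.59%) and 2 (0.897%). The difference between classes was not tested. The classes also differed in level, with a median over the 6 libraries of 0.0982 for canonical introns and 0.838 to 0.965 for these others. A level near 1 has little room to rise, and the part of the level in these counts was not tested. Of 3518 introns, 1118 overlapped another, so neighbouring introns share reads.

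**Figure D3:**
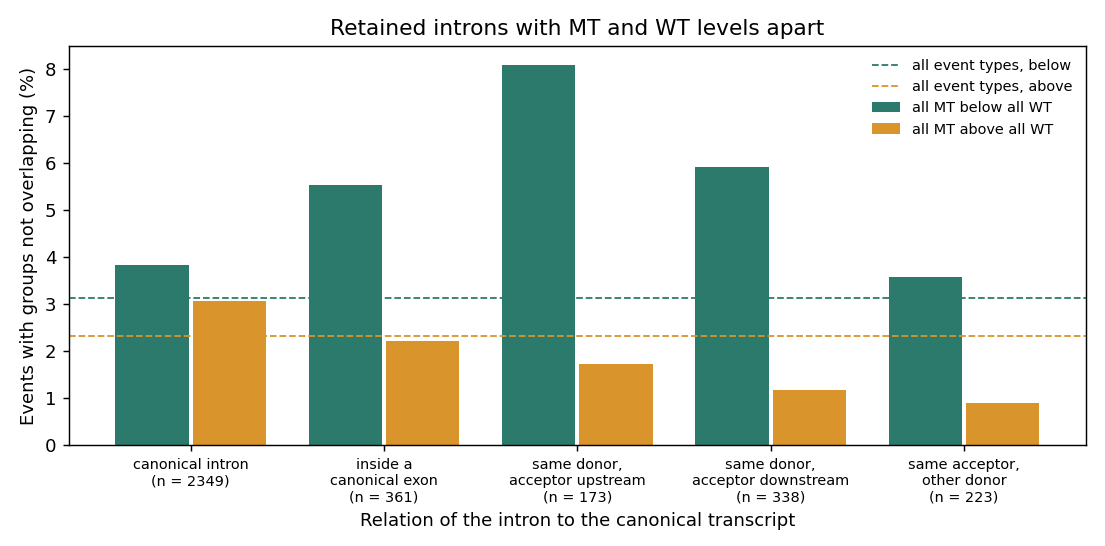
Share of retained introns (y axis, percent) whose MT levels lay all below (green) or all above (orange) the WT levels, by relation to the canonical transcript (x axis), with dashed lines for all event types at 3.14% and 2.32%. The lower share was 8.09% for a canonical donor with an upstream acceptor and 3.83% for canonical introns.

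**Figure D4:**
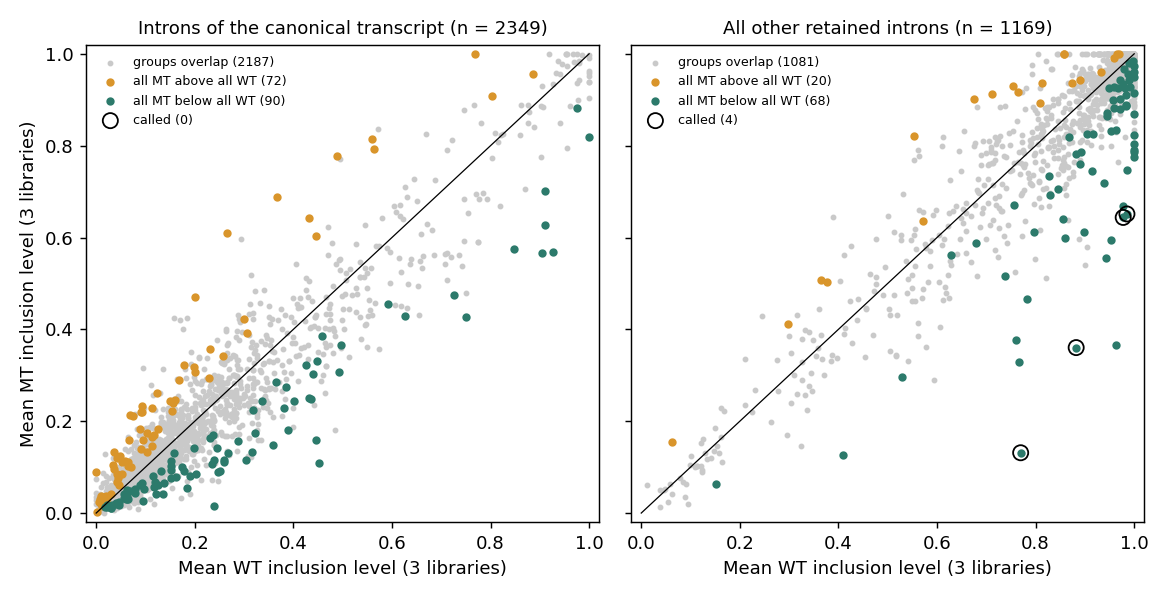
Mean MT level (y axis) against mean WT level (x axis) of each retained intron, for 2349 canonical introns (left) and 1169 others (right), coloured by whether the groups overlap, with the 4 called introns circled. Canonical introns with groups apart lay on both sides of the diagonal (90 below, 72 above), and the others mostly below it (68 below, 20 above).

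The median change over all retained introns was close to 0. The median difference in mean level was -0.0023, beside -0.002 over all events tested, with 1922 introns lower and 1575 higher. The quartiles of the differences were -0.029 and 0.0153, and their mean was -0.0095. Libraries decided the sign of the median: it was 0.0043 without WT 3, 0.0004 without MT 1, -0.0087 without MT 3 and -0.001 without both number 3 libraries.

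By intron length, the median difference was 0.0007 in the 1178 introns under 150 bp, -0.003 in the 1352 from 150 up to 500 bp, -0.0065 in the 732 from 500 up to 1500 bp and -0.012 in the 256 of 1500 bp and more. The lower and higher counts were 43 and 33, 66 and 37, 42 and 20, and 7 and 2 in the same order. As shares these were 3.65% and 2.8%, 4.88% and 2.74%, 5.74% and 2.73%, and 2.73% and 0.781%, beside 3.14% and 2.32% of all event types. Per library, the median level of the introns under 150 bp was 0.118, 0.134 and 0.182 in the WT libraries and 0.114, 0.144 and 0.175 in MT. For those of 1500 bp and more it was 0.225, 0.172 and 0.306 in the WT libraries and 0.203, 0.163 and 0.208 in MT. The genotypes overlapped in both classes, and WT 3 was the highest of the 6 in each. Without WT 3 and MT 3 the medians by length were 0.0005, -0.0015, -0.0035 and -0.002, so the step down to the longest class was absent. Without WT 3 alone they were 0.0073, 0.0042, 0.001 and -0.0003.

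**Figure D5:**
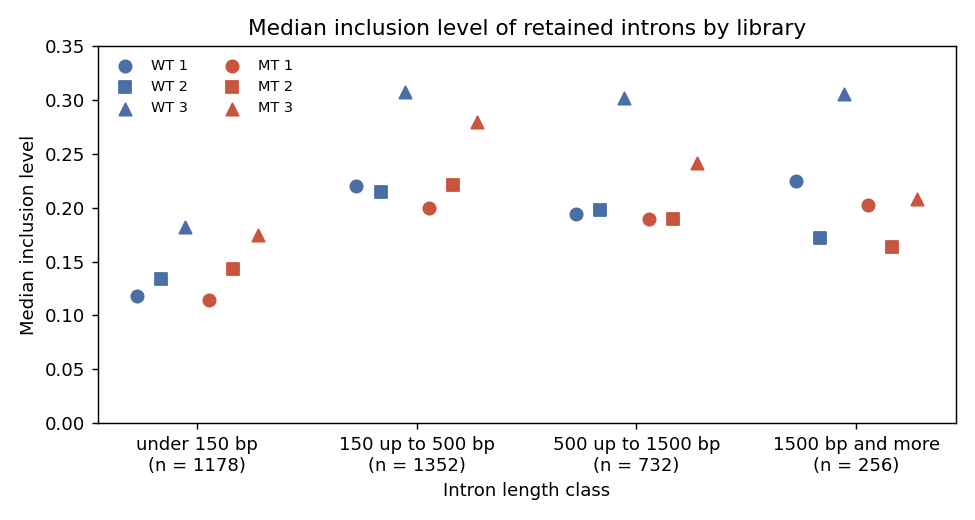
Median inclusion level (y axis) of the retained introns of each length class (x axis) in each library, WT in blue and MT in red. WT 3 was the highest library in every class, at 0.306 for introns of 1500 bp and more, and MT 3 was the second highest in the classes under 1500 bp.

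By WT level, the median difference was 0.0003 in the 1199 introns under 0.1, -0.011 in the 1095 from 0.1 up to 0.5, -0.022 in the 471 from 0.5 up to 0.9 and -0.005 in the 753 at 0.9 and more. These classes use the WT values that also enter the difference. With classes by the mean of all 6 libraries, the medians were -0.0007, -0.006, -0.029 and -0.0025. The class from 0.5 up to 0.9 had 44 of 481 introns lower (9.15%) and 16 higher (3.33%) by that grouping. Without WT 3 and MT 3 its median was -0.022. At 0.9 and more, 31 of 730 were lower (4.25%) and 9 higher (1.23%). From 0.1 up to 0.5 the shares were 4.65% and 3.28%, and under 0.1 they were 2.64% and 2.56%. In classes by WT level, 51 of 753 were lower (6.77%) and 4 higher (0.531%) at 0.9 and more. Under 0.1, 26 of 1199 were lower (2.17%) and 41 higher (3.42%). All event types had 3.14% lower and 2.32% higher. In the class from 0.1 up to 0.5, single libraries decided the sign: its median was 0.0168 without WT 3 and -0.0283 without MT 3 in classes by WT level, and 0.0193 and -0.0242 in classes by all 6 libraries.

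Among introns with at least 50 mean reads in each genotype (2105), 87 were lower (4.13%) and 41 higher (1.95%) with no overlap. Under the same read rule the shares over all event types were 3.04% lower and 2.15% higher. Among those with no overlap, the 10 most negative differences were those of RPRD1A and COASY and 8 that did not pass (limma adjusted p of 0.595 to 0.856). Of these 8, 3 used a canonical donor with a downstream acceptor. In AHSA2, a relative of the HSP90 co-chaperone AHSA1, the level was 0.574, 0.349 and 0.662 in the WT libraries and 0.302, 0.243 and 0.345 in MT. In SNRPA1, which encodes a protein of the U2 snRNP, it was 0.714, 0.614 and 0.885 in the WT libraries and 0.5, 0.439 and 0.61 in MT. In RPL3, a core protein of the large ribosomal subunit, it was 0.828, 0.877 and 0.784 in the WT libraries and 0.748, 0.708 and 0.619 in MT. In AHSA2 and SNRPA1 the lowest WT library lay close to the highest MT library, and in RPL3 the gap was wider.

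The other 5 were canonical introns. RFNG, a fringe glycosyltransferase that acts on Notch, had the largest difference, with 0.267, 0.377 and 0.429 in the WT libraries and 0.12, 0.143 and 0.183 in MT (difference -0.209) at its 395 bp intron, chr17:82050007-82050401. PLAGL1, a zinc finger transcription factor, had 0.347, 0.398 and 0.553 in the WT libraries and 0.258, 0.229 and 0.265 in MT. SLC29A1, an equilibrative nucleoside transporter, had 0.145, 0.299 and 0.307 in the WT libraries and 0.032, 0.117 and 0.128 in MT. In AP1G2, an adaptor subunit of vesicle transport, and VPS13D, a lipid transfer protein, the WT 3 library was far above the other WT libraries. Their levels were 0.302, 0.273 and 0.571 against 0.234, 0.253 and 0.2 in AP1G2, and 0.267, 0.247 and 0.451 against 0.213, 0.157 and 0.156 in VPS13D. Without WT 3 and MT 3 the differences were -0.044 and -0.072, and without WT 3 alone they were -0.058 and -0.082, in AP1G2 and VPS13D.

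The 10 most positive differences were taken from the same introns, with groups apart and at least 50 mean reads in each genotype. None of them passed (limma adjusted p of 0.703 to 0.856). The first was the canonical TMEM218 intron described above. B9D1, like TMEM218 a gene of the ciliary transition zone, had the lowest adjusted p of these. Its last canonical intron (328 bp, chr17:19343462-19343789) had 0.084, 0.143 and 0.142 in the WT libraries and 0.179, 0.289 and 0.315 in MT (difference 0.138, adjusted p = 0.703). ACAA1, a peroxisomal thiolase, had 0.143, 0.204 and 0.25 in the WT libraries and 0.257, 0.289 and 0.408 in MT, a difference of 0.119 that was 0.074 without MT 3. ARL6IP4, a nuclear speckle protein, had 0.306, 0.271 and 0.318 in the WT libraries and 0.412, 0.363 and 0.462 in MT. MUS81, a structure-specific DNA endonuclease, had 0.159, 0.16 and 0.16 in the WT libraries and 0.248, 0.204 and 0.284 in MT at an intron of 74 bp. The WT libraries of MUS81 were nearly equal while the MT libraries spread.

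The remaining 5 differences were smaller, from 0.065 to 0.0957, in MFSD10, DNAJB12, EWSR1, INTS11 and CNBP. MFSD10, a membrane transporter of the major facilitator family, had 0.103, 0.103 and 0.059 in the WT libraries and 0.167, 0.118 and 0.267 in MT. Its difference of 0.0957 was 0.054 without MT 3 and 0.04 without both number 3 libraries. EWSR1, an RNA-binding protein of the FET family, had the most reads of them (mean 235.7) and went from 0.837, 0.81 and 0.78 to 0.882, 0.889 and 0.906. INTS11, the endonuclease of the Integrator complex, went from 0.122, 0.197 and 0.142 to 0.213, 0.211 and 0.246. CNBP, a zinc finger protein that binds nucleic acids, was the only one of the 10 with an acceptor upstream of the canonical one, by 6 nt, and went from 0.577, 0.587 and 0.549 to 0.65, 0.636 and 0.622. DNAJB12, an endoplasmic reticulum co-chaperone, went from 0.248, 0.277 and 0.246 to 0.366, 0.328 and 0.333.

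Gene lists were read by their counts beside the 4.49% lower and 2.62% higher of all retained introns. Ribosomal protein genes gave the largest list, with 84 introns in 42 genes, 1 called (RPS15), 6 lower (7.14%) and 1 higher (1.19%), and a median difference of -0.0007. Among the 6 lower were 2 overlapping introns of RPS15 and 1 each of RPL3, RPS7 and RPL17, and the 1 higher was the canonical RPS15 intron. RPS7, at an intron with another donor 98 nt from the canonical one, had 0.979, 0.92 and 0.976 in the WT libraries and 0.874, 0.858 and 0.915 in MT (adjusted p = 0.452 in limma). The 2 introns with most reads did not pass the test. RPS2 went from 0.0267 ± 0.0051 to 0.0257 ± 0.0006 and RPL8 from 0.947 ± 0.0079 to 0.955 ± 0.0025 (SD, n = 3 each).

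Splicing factor genes held no call. SR proteins and CLK kinases, which bind exonic enhancers and phosphorylate the SR proteins, had 17 introns in 9 genes, with 1 lower (TRA2A), none higher and a median difference of -0.019. SRSF5 intron 5, with 535.4 mean reads, had 0.438, 0.248 and 0.446 in the WT libraries and 0.338, 0.176 and 0.12 in MT, and the groups overlapped (adjusted p = 0.547 in limma). The SRSF1 intron with most reads was at 0.984 ± 0.0017 in the WT libraries and 0.991 ± 0.0067 in MT. The hnRNP proteins had 21 introns, 1 lower, none higher and a median of -0.0033. The 1 was an HNRNPM intron inside canonical exon 6, with 0.61, 0.639 and 0.637 in the WT libraries and 0.563, 0.53 and 0.59 in MT and a mean of 1224.5 reads (adjusted p = 0.802 in limma). HNRNPA1 was at 0.0363 ± 0.0015 and 0.0357 ± 0.0055, and HNRNPU at 0.0243 ± 0.0085 and 0.018 ± 0.0026.

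The U2 snRNP and 3′ splice site factors had 16 introns in 7 genes, 2 lower (SNRPA1 and U2AF1L4), none higher and a median difference of -0.0192. U2AF1L4, a paralogue of the small U2AF subunit, rested on 11.3 mean reads. Its level was 1.0 in each WT library and 0.696, 0.768 and 0.91 in MT. The introns with most reads, of SF3A2 and SF1, were at 0.0153 ± 0.01 and 0.0247 ± 0.0114, and at 0.921 ± 0.0214 and 0.940 ± 0.0404, in WT and MT.

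R-loop and mRNA export genes had 22 introns in 12 genes, none called, 2 lower, none higher and a median of -0.0133. The 2 were TOP3B, a topoisomerase acting on RNA and DNA, with 0.314, 0.368 and 0.52 in the WT libraries and 0.2, 0.254 and 0.278 in MT, and THOC5, a THO complex subunit, with 0.99, 0.995 and 1.0 in the WT libraries and 0.971, 0.981 and 0.986 in MT. Neither TOP3B, with 31 mean reads, nor THOC5 passed the test (limma adjusted p = 0.856 for each). The spliced form of THOC5 had means of 1 and 2.5 reads in WT and MT (authors' means). DDX5, an RNA helicase, was at 0.128 ± 0.0411 in the WT libraries and 0.106 ± 0.026 in MT. RNA decay genes had 13 introns in 8 genes, none apart in either direction, and a median of 0.011. EXOSC2, an exosome subunit, was at 0.169 ± 0.065 and 0.188 ± 0.0406, and CNOT3, of the deadenylase complex, at 0.0317 ± 0.0091 and 0.024 ± 0.007.

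Host genes of small nucleolar RNAs, which lie in introns, had 27 introns in 9 genes, 1 lower (SNHG11), none higher and a median of -0.019. The 2 GAS5 introns with most reads were at 0.198 ± 0.0287 and 0.117 ± 0.0582 in the WT libraries and 0.163 ± 0.0685 and 0.0747 ± 0.0713 in MT. OGT and MAT2A, genes known for detained introns, had 1 intron each. OGT, the O-GlcNAc transferase, had 0.461, 0.374 and 0.745 in the WT libraries and 0.516, 0.279 and 0.518 in MT. MAT2A, which makes S-adenosylmethionine, had 0.194, 0.106 and 0.174 in the WT libraries and 0.197, 0.101 and 0.121 in MT. The groups overlapped in both, and WT 3 was the highest library for OGT.

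The study also lists 59 retained intron events as changed in Nalm-6, a pre-B cell leukaemia line with the same mutation, and only their identity was used here. Of these, 55 were in the HEK293T table and 45 were tested. In all, 3 were called (6.67%, against 0.114% of retained introns), those of RPRD1A, COASY and RPS15. No overlap was seen in 8 that were lower (17.8%, against 4.49%) and 3 that were higher (6.67%, against 2.62%). Beside those, the lower ones were the 1068 bp intron of RPS15 and introns of PPOX, RFNG, DDX11 and RPS7, and the higher ones were of ACAA1, MICAL1 and NRBP2. Both RPS15 introns share a donor and overlap, so they are not separate evidence. The differences of the 45 ran from -0.638 to 0.23 with a median of -0.011, and 26 were below 0 and 19 above.

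PPOX, the enzyme that makes protoporphyrin in haem synthesis, had 1.0, 0.957 and 1.0 in the WT libraries and 0.737, 0.787 and 0.719 in MT at the intron that ends 32 nt before the canonical acceptor (difference -0.238, adjusted p = 0.104 in limma). DDX11, a DNA helicase, had 0.88, 0.854 and 0.934 in the WT libraries and 0.739, 0.769 and 0.773 in MT. Of the 5 listed introns with most reads, COASY and RPS7 are given above. BAX, a promoter of apoptosis, had 0.338, 0.362 and 0.36 in the WT libraries and 0.327, 0.392 and 0.513 in MT. OXA1L, a mitochondrial membrane insertase, had 0.039, 0.092 and 0.177 in the WT libraries and 0.079, 0.185 and 0.214 in MT. ZC3H11A, a zinc finger protein of mRNA export, had 0.884, 0.832 and 0.938 in the WT libraries and 0.897, 0.891 and 0.953 in MT. The groups overlapped in these 3, and in OXA1L library 3 was the highest of each genotype.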

How the data were processed

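RNA sequencing of 6 HEK293T libraries was aligned to GRCh38; per the labels STAR was among the tools. Splice events follow the rMATS model. The authors deposited an inclusion level per event and library as a fraction, with mean junction reads per form over each genotype. Another 6 columns of packed per-sample values were not used, nor were columns of the authors' own comparisons (differences, p-values) or the DRIP peak files. Levels recomputed from the mean WT reads per form length differed from the WT mean by a median of 0.0032, against 0.0574 without the length.

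Levels were tested in limma 3.58.1 (R 4.3.3) on the arcsine square root scale, with a variance trend on log mean reads and Benjamini-Hochberg adjustment over all events with at least 10 mean reads. On simulated levels, 32.4% of retained introns changed by 0.5 and 6.8% of those changed by 0.3 were called, with 7.69% of calls false. Only introns of middle mean level were changed, so these rates do not carry over to introns near 0 or 1. The false share depends on the 200 changes placed in each run and does not give the false share of the real calls. Introns were placed with GENCODE 44. Named introns were those called, the 10 largest rises and 10 largest falls with groups apart and at least 50 mean reads in each genotype, the 2 with most reads of each gene list, and the 5 with most reads of the Nalm-6 list. Others named, chosen after their values were seen, were those with groups apart in a list and further introns of called genes. Members and lists were chosen with earlier results of these data known. Some items are not reported here. Library depth is not in the table, so no counting intervals are given, and mean reads per event are the only measure of precision.

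The level columns of both genotypes are numbered 1 to 3. As 6 MT values are listed for 3 MT columns, an MT number need not mark the same replicate as the WT number. Over retained introns, deviations from the group mean correlated between same-numbered WT and MT libraries (Pearson r = 0.206, 0.155 and 0.148, across introns) and less between others (-0.129 to -0.0147). Over all events r was 0.0989, 0.0964 and 0.0266, and -0.102 to 0.0125 between others. Deviations from a group mean are tied to each other, and so are these r values. A pairing by number was therefore treated as possible only, and the main test does not use it. The replicate block was fitted as an alternative, beside other scales, read minimums and the omission of libraries.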

Additional observations from a re-analysis of the deposited data

How the results depend on the processing

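The 4 calls fell to 0 on the logit scale and with no variance trend, and to 2 (RPRD1A and COASY) in a fit of retained introns alone, with at least 50 mean reads (which leaves out the other 2 by their reads) and with the replicate block, which changed no other call among the named introns. With 1 event per group of overlapping introns, an alternative chosen after seeing the data, the calls of RPRD1A and COASY remained. With no minimum of reads there were 3 calls, without that of RPS15. Leaving out each library in turn gave 0 to 3 calls, 198 to 399 introns lower and 145 to 325 higher without overlap, numbers that grow with fewer libraries by construction. Without WT 3 and MT 3, also chosen after seeing the data, there were 0 calls, 471 lower and 414 higher. With at least 50 mean reads, 94 were lower and 42 higher. The median difference stayed within -0.0087 and 0.0043 over its alternatives, and the mean in its place was -0.0095. The 306 repeats covered 22 introns, the 4 called and the 10 highest and 10 lowest differences among introns with groups apart and at least 50 mean reads in each genotype, with RPRD1A and COASY in both sets. All kept their direction, and 32 of the 54 repeats of the 4 called introns lost the call. In simulated data, 6.8% of changes of 0.3 and 1.6% of changes of 0.2 were called, so shifts of that size in single introns of middle level were rarely detected. Introns near 0 or 1 were not changed in the simulation.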
